A study of Rattus norvegicus with 16 samples.

Results

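RNA levels of type I and type III collagen genes, the fibronectin gene and Tgfb1 were followed in kidneys of young rats. The rats had lost the left kidney or had a sham operation. The set was chosen by identity and not by measured values. It holds the 5 rows with the rat Ensembl identifiers ENSRNOG00000003897 (Col1a1), ENSRNOG00000011292 (Col1a2), ENSRNOG00000003357 (Col3a1), ENSRNOG00000014288 (Fn1) and ENSRNOG00000020652 (Tgfb1), out of 26689 genes in the deposited table. The symbols are those given with the rule. The table itself carries identifiers only.

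The samples were kidneys of male Wistar rat pups, 16 libraries of total RNA in 4 groups of 4. Uninephrectomy (UNX), removal of the left kidney, was done on day 1 of life in one group and on day 14 in another. Each had a sham-operated group of the same day. All kidneys were taken 3 days after surgery. The design asks what loss of a kidney does to the remaining one in early life, when rat nephrons are still being formed, and later. Values are regularised-log (rlog) expression levels. They are on a log2 scale, are corrected for library depth but not for gene length, and have their differences shrunken, most of all for weakly expressed genes. A level is therefore compared only with the level of the same gene in other libraries. The number of reads per library is unknown here. Nothing in the labels ties each library to its own pup, so the tests measure the spread between these libraries, which may be technical. In whole-kidney RNA, fewer cells of a type and less RNA per cell cannot be told apart. Tissue and cell type markers could not be checked, because only the 5 members carry a gene name here.

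Fibrillar collagens are the rope-like proteins of the interstitial matrix. Type I collagen is assembled from Col1a1 and Col1a2 chains, and type III collagen from Col3a1 chains alone. Fibronectin, the product of Fn1, is a matrix glycoprotein that cells bind through integrins and on which collagen is laid down. Tgfb1 encodes the secreted ligand TGF-beta 1, which signals through receptor kinases and Smad proteins and is known to drive the transcription of collagen and fibronectin genes in fibroblasts. In the kidney these genes are followed as markers of scarring, and they are also active in the stroma of the normally growing organ.

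Of the 5 genes, 4 were expressed well above the limit of at least 3 in mean rlog value that was set for testing, and the row paired with Col1a2 was not. That row lay between −0.47 and −0.41 in all 16 libraries. In 11 libraries it stood within 0.002 of its lowest value, and in the other 5 it was slightly higher. The 5 higher values were −0.42 in UNX day 1 library 1, −0.43 in UNX day 14 library 1, and −0.43, −0.41 and −0.44 in sham day 14 libraries 1, 2 and 3. Of the 22715 genes that varied between libraries, 19.9% had a lower mean. A row close to silence goes against the name Col1a2, since the partner chain Col1a1 stood at a mean of 14.89. Whether the identifier, the counting or the tissue gives this was not tested. The row is described here and enters no comparison.

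Col1a1 had its highest group mean after UNX on day 1 and its lowest after UNX on day 14. In UNX day 1 libraries 1 to 4 it stood at 15.15, 14.93, 15.01 and 15.13. In sham day 1 libraries 1 to 4 it stood at 15.05, 15.02, 14.58 and 14.75. The UNX day 1 values lay close together, while sham libraries 3 and 4 lay below all of them and sham libraries 1 and 2 among them. In UNX day 14 libraries 1 to 4 the values were 14.54, 14.69, 14.91 and 14.91, and in sham day 14 libraries 1 to 4 they were 14.88, 14.99, 15.11 and 14.55. At day 14 the low libraries were UNX library 1 and sham library 4, so both groups reached down to about the same level. The means were 15.05 ± 0.10 for UNX day 1, 14.88 ± 0.24 for sham day 14, 14.85 ± 0.22 for sham day 1 and 14.76 ± 0.18 for UNX day 14 (SD, n = 4 each). Each neighbouring pair in that order overlapped in its values and differed by less than the larger of its SDs.

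Col3a1 ranked the libraries of each group as Col1a1 did, except that in UNX day 1 libraries 2 and 3 changed places. It stood at 14.60, 14.38, 14.36 and 14.59 in UNX day 1 libraries 1 to 4 and at 14.56, 14.42, 14.09 and 14.24 in sham day 1 libraries 1 to 4. As for Col1a1, the lowest day 1 values were those of sham libraries 3 and 4. In UNX day 14 libraries 1 to 4 it stood at 14.14, 14.39, 14.44 and 14.49, and in sham day 14 libraries 1 to 4 at 14.49, 14.57, 14.73 and 14.17. Here too UNX library 1 and sham library 4 were the low ones, and the groups overlapped. The means were 14.49 ± 0.24 for sham day 14, 14.48 ± 0.13 for UNX day 1, 14.36 ± 0.16 for UNX day 14 and 14.33 ± 0.20 for sham day 1 (SD, n = 4 each), and no neighbours in that order differed by more than their spread.

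Fn1 was even across the day 1 libraries and uneven across those of day 14. It stood at 15.86, 15.83, 15.89 and 15.90 in UNX day 1 libraries 1 to 4 and at 15.89, 15.78, 15.86 and 15.90 in sham day 1 libraries 1 to 4, 2 groups that overlapped throughout. It stood at 15.46, 15.69, 15.54 and 15.79 in UNX day 14 libraries 1 to 4 and at 15.87, 15.76, 16.04 and 15.55 in sham day 14 libraries 1 to 4. Among the day 14 libraries sham library 3 was the highest and UNX library 1 the lowest, and sham libraries 2 and 4 lay within the UNX range. The SD was 0.031 in UNX day 1, 0.057 in sham day 1, 0.15 in UNX day 14 and 0.21 in sham day 14 (n = 4 each). Whether the spread differs between the ages was not tested. The means ran from 15.87 in UNX day 1 through 15.86 in sham day 1 and 15.80 in sham day 14 to 15.62 in UNX day 14, and neighbours overlapped.

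Tgfb1, the ligand of the set, varied least. It stood at 9.41, 9.34, 9.32 and 9.32 in UNX day 1 libraries 1 to 4 and at 9.27, 9.47, 9.33 and 9.28 in sham day 1 libraries 1 to 4. Sham library 2 was the highest of all 16. It stood at 9.17, 9.23, 9.28 and 9.29 in UNX day 14 libraries 1 to 4 and at 9.27, 9.30, 9.38 and 9.31 in sham day 14 libraries 1 to 4, where the 2 groups overlapped. The means ran from 9.35 ± 0.039 in UNX day 1 through 9.34 ± 0.094 in sham day 1 and 9.31 ± 0.048 in sham day 14 to 9.24 ± 0.058 in UNX day 14 (SD, n = 4 each). Between sham and UNX day 14, the only neighbours that differed by more than the larger SD, the values overlapped.

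**Figure D1:**
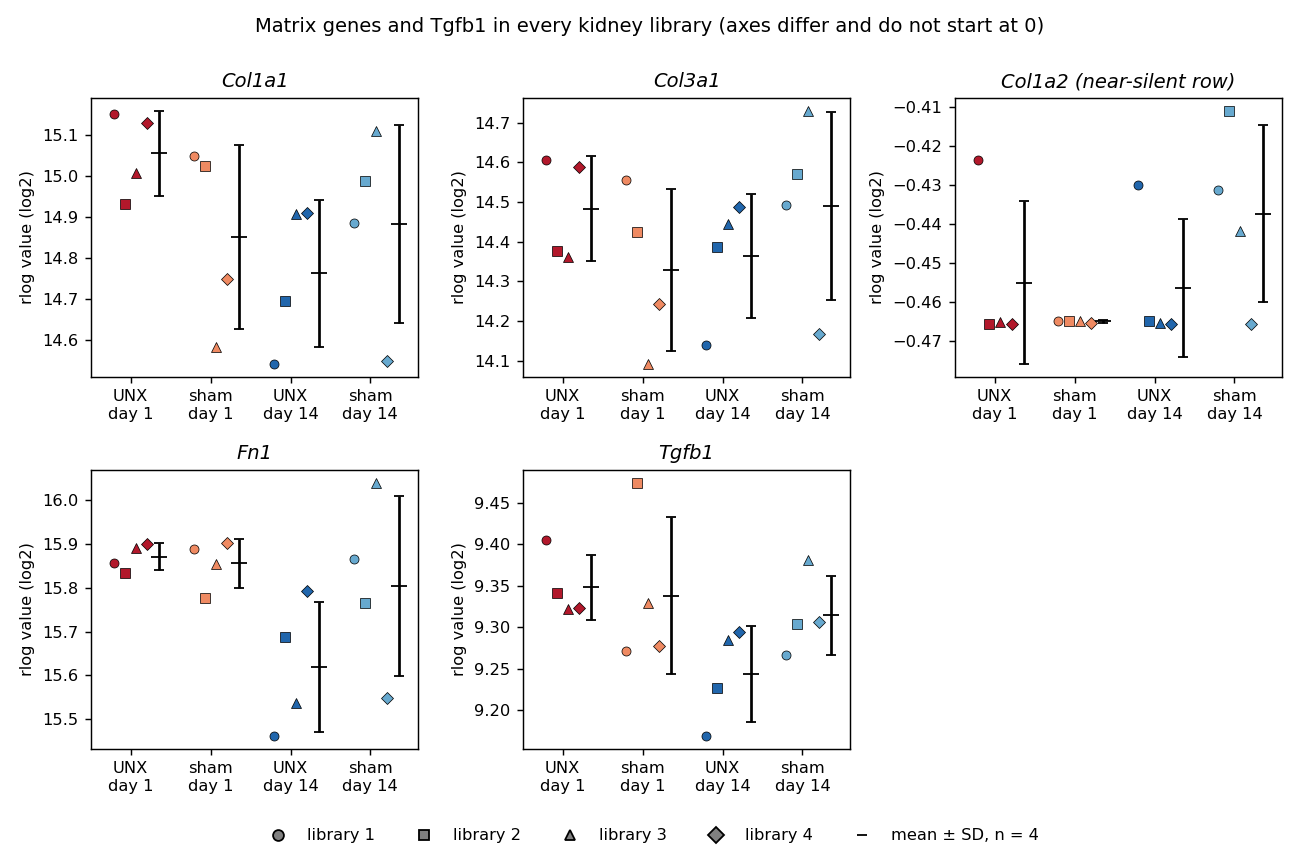
rlog value (log2 scale, 1 axis range per gene) of each of the 5 genes, with groups named on the x axis, 1 symbol shape per library number and bars for mean ± SD (n = 4). Col1a1 and Col3a1 share their low libraries, Fn1 spreads at day 14 only, Tgfb1 stays between 9.17 and 9.47, and the Col1a2 row lies below 0 throughout.

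The collagen genes varied between libraries of the same group more than most genes did. The residual SD within groups was 0.19 for Col1a1 and 0.19 for Col3a1, larger than in 96.5% and 95.8% of the 14845 tested genes, whose median was 0.090. It was 0.13 for Fn1, larger than in 83.7%, and 0.063 for Tgfb1, larger than in 17.9%. Among the 200 genes nearest to each in mean value, 98.0% varied less than Col1a1, 96.5% less than Col3a1, 89.0% less than Fn1 and 18.0% less than Tgfb1. From the lowest to the highest of the 16 libraries the levels spanned 1.53-fold for Col1a1, 1.56-fold for Col3a1, 1.49-fold for Fn1 and 1.24-fold for Tgfb1. Sham day 1 library 3 and sham day 14 library 4 stood apart from the other 14 libraries over all tested genes, at −14.5 and −12.9 on the second principal component against −2.58 to 5.95. They also held the lowest collagen values of their groups, so the results they bear on are also given without them. The part of whatever sets these libraries apart in the results was not tested.

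After surgery on day 1 none of the 4 tested genes passed the test between UNX and sham kidneys. The log2 difference, UNX minus sham, was 0.20 for Col1a1 (SE 0.11, 95% interval −0.04 to 0.44, limma adjusted p = 0.745) and 0.15 for Col3a1 (SE 0.11, interval −0.08 to 0.38, limma adjusted p = 0.800). For Fn1 it was 0.02 (interval −0.16 to 0.19) and for Tgfb1 0.01 (interval −0.09 to 0.11), with limma adjusted p of 0.986 and 0.984. As a percentage of the sham level the intervals run from −2.57% to 36.0% for Col1a1 and from −6.31% to 8.20% for Tgfb1. Of all tested genes 0.00674% were called in this comparison, so a count of 0 among 4 is the background. At an unadjusted p under 0.05 limma also gave 0 of the 4, against 7.15% of all tested genes. An exact permutation test with adjustment over all genes called none of the 4. That adds nothing, since with 70 splits its smallest adjusted p for any tested gene was 0.634. The median difference of the 4 genes was 0.08, against −0.0025 over all tested genes, where differences of either sign cancel. Regardless of sign, the median size over all tested genes was 0.048. Without sham day 1 library 3 and sham day 14 library 4 the difference was 0.11 for Col1a1 and 0.07 for Col3a1, both more than 1.5 times smaller.

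After surgery on day 14 the differences lay on the other side of 0, and again none of the 4 passed. Fn1 was furthest from 0, at −0.19 (SE 0.084, 95% interval −0.36 to −0.01), an unadjusted p of 0.0392 in limma and a limma adjusted p of 0.319. Its UNX and sham values overlapped. That SE pools the spread of all 4 groups, and the SD of Fn1 was 0.031 and 0.057 in the day 1 groups against 0.15 and 0.21 in those of day 14. In a limma fit of only the UNX and sham day 14 libraries the SE of Fn1 was 0.103, and its unadjusted p was not under 0.05. The exact permutation test gave Fn1 an unadjusted p of 0.2. Col3a1 differed by −0.13 (interval −0.36 to 0.10, limma adjusted p = 0.651) and Col1a1 by −0.12 (interval −0.36 to 0.12, limma adjusted p = 0.696). Tgfb1 differed by −0.07 (SE 0.050, interval −0.17 to 0.03, limma adjusted p = 0.557). Fn1 was the only one of the 4 with an unadjusted p under 0.05 in limma over all 16 libraries, where 14.4% of all tested genes were. The exact permutation test called 0, but its smallest adjusted p for any gene was 0.410, so that count adds nothing. Of all tested genes 0.0539% were called. The median difference of the 4 genes was −0.12, against −0.00026 over all tested genes, where differences of either sign cancel. Regardless of sign, the median size over all tested genes was 0.059. Col1a1 and Col3a1 moved together, as given below, and varied more within groups than most genes, so they do not count as separate evidence.

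The day 14 values moved with single libraries. Without sham day 1 library 3 and sham day 14 library 4 the differences were −0.23 for Col1a1, −0.23 for Col3a1 and −0.27 for Fn1, with limma adjusted p of 0.220, 0.199 and 0.103. Without UNX day 14 libraries 1 and 3 they were −0.08, −0.05 and −0.07, with limma adjusted p of 0.931, 0.953 and 0.919. The first pair of left-out libraries widened the gap and the second narrowed it, and neither brought a call. Sham day 14 library 4 was the lowest of its group for Col1a1, Col3a1 and Fn1. UNX day 14 libraries 1 and 3 were the lowest of theirs for Fn1. For Fn1 both directions thus follow from the libraries left out. Leaving out sham day 14 library 3 alone gave −0.04 for Col1a1, −0.05 for Col3a1 and −0.11 for Fn1. Leaving out UNX day 14 library 1 alone gave −0.05, −0.05 and −0.13. For Tgfb1 the difference stayed between −0.09 and −0.05 over these and the other fits without single libraries, and leaving out UNX day 14 library 1 gave the value nearest to 0.

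A dependence of the UNX effect on age was tested by subtracting the day 1 effect from the day 14 effect. The result was −0.32 for Col1a1 (SE 0.16, 95% interval −0.66 to 0.02, limma adjusted p = 0.487) and −0.28 for Col3a1 (SE 0.16, interval −0.61 to 0.05, limma adjusted p = 0.538). For Fn1 it was −0.20 (interval −0.45 to 0.05, limma adjusted p = 0.566) and for Tgfb1 −0.08 (interval −0.23 to 0.07, limma adjusted p = 0.706). None of the 4 passed, and 0 had an unadjusted p under 0.05 in limma over all 16 libraries. A permutation test over 4900 relabellings within age called 0, and its smallest adjusted p for any gene was 0.216. It is exact only if surgery has no effect at either age, and approximate for equal effects. Of all tested genes 0% were called, and 10.7% had an unadjusted p under 0.05. A change of sign from day 1 to day 14 is thus not established for any of them, although all 4 estimates were above 0 on day 1 and below 0 on day 14. On day 1 those of Fn1 and Tgfb1 were close enough to 0 to change sign when single libraries were left out. The estimates without sham day 1 library 3 and sham day 14 library 4 were −0.34 for Col1a1, −0.31 for Col3a1, −0.29 for Fn1 and −0.08 for Tgfb1. For Col1a1, Col3a1 and Fn1 the unadjusted p in limma was then 0.0143, 0.0228 and 0.0139, and the limma adjusted p 0.296, 0.331 and 0.296. Without UNX day 14 libraries 1 and 3 the estimates were −0.28, −0.21, −0.08 and −0.06. Those libraries held the lowest Fn1 values of their group, so the larger move of Fn1 follows from leaving them out. Leaving out sham day 14 library 3 alone gave −0.12 for Fn1, and leaving out sham day 1 library 2 alone gave −0.13 for Tgfb1. Without sham day 14 library 4 alone the estimates were −0.43 for Col1a1, −0.39 for Col3a1 and −0.29 for Fn1. Their unadjusted p in limma were 0.00684, 0.0103 and 0.0108, and their limma adjusted p 0.275, 0.315 and 0.316. Without sham day 1 library 3 alone Col1a1 and Col3a1 moved the other way, to −0.23 and −0.20 (unadjusted p in limma of 0.149 and 0.197).

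In sham kidneys the levels of the matrix genes did not pass the test for a difference between the ages, a comparison in which 45.1% of all tested genes did. Age and any batch tied to it cannot be told apart. The log2 difference, day 14 minus day 1, was 0.16 for Col3a1 (95% interval −0.07 to 0.39, limma adjusted p = 0.248) and 0.03 for Col1a1 (interval −0.21 to 0.27, limma adjusted p = 0.853). For Fn1 it was −0.05 (interval −0.23 to 0.12, limma adjusted p = 0.655) and for Tgfb1 −0.02 (interval −0.13 to 0.08, limma adjusted p = 0.729). The median size of the difference was 0.041 for the 4 genes and 0.14 over all tested genes. At an unadjusted p under 0.05 limma gave 0 of the 4, against 51.8% of all tested genes. The exact permutation test called 0, but its smallest adjusted p for any gene was 0.0778, so that count adds nothing. Col3a1 depended on 1 library: without sham day 14 library 4 its difference was 0.27 and passed (limma adjusted p = 0.0387). Without that library and sham day 1 library 3 together it was 0.19 (limma adjusted p = 0.118).

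In kidneys left after UNX, Fn1 and Col1a1 passed the test as lower at day 14 than at day 1, but neither call held in every alternative fit. Age and any batch tied to it cannot be told apart here either. From UNX day 1 to UNX day 14 kidneys Fn1 changed by a log2 difference of −0.25 (SE 0.084), with a 95% interval of −0.43 to −0.08 and a limma adjusted p of 0.0190. That is −16.0% in level. Col1a1 changed by −0.29 (SE 0.11, interval −0.53 to −0.05, limma adjusted p = 0.0447), or −18.3%. Tgfb1 differed by −0.10 (SE 0.050, interval −0.21 to −0.0004, limma adjusted p = 0.0941) and Col3a1 by −0.12 (interval −0.35 to 0.11, limma adjusted p = 0.40), neither of which passed. The Col3a1 difference shrank to −0.04 when UNX day 14 library 1 was left out and to −0.08 when UNX day 1 library 1 was. For Fn1, Col1a1 and Tgfb1 all 4 UNX day 14 values lay below all 4 UNX day 1 values, and for Col3a1 the groups overlapped.

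Changes between the ages were common among genes at large. Of all tested genes 45.9% were called, against 2 of these 4, and 22.9% were called as lower. Lower values without overlap were found in 22.8% of all tested genes and in 3 of the 4. Nothing particular to the set is read from 4 genes. The call for Col1a1 was lost when any one of UNX day 1 libraries 1, 3 and 4, UNX day 14 libraries 1 and 2 and sham day 14 library 1 was left out (limma adjusted p of 0.0525 to 0.154). That for Fn1 was lost when UNX day 14 library 1 or 3 was left out (limma adjusted p of 0.0749 and 0.0570). Both calls held without sham day 1 library 3 and sham day 14 library 4, which enter this comparison only through the shared spread (limma adjusted p = 0.00711 for Col1a1 and 0.00534 for Fn1). Without UNX day 14 libraries 1 and 3 together the Fn1 difference was −0.13 (limma adjusted p = 0.306) and the Col1a1 difference −0.25 (limma adjusted p = 0.166). Those libraries held the lowest Fn1 values of their group, so the Fn1 difference shrinks by construction. The difference between the age changes in UNX and in sham kidneys is the same contrast as the difference of the UNX effects above, and it did not pass, so a fall with age that is particular to UNX kidneys was not shown. The comparisons share libraries, and their values are given side by side only.

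**Figure D2:**
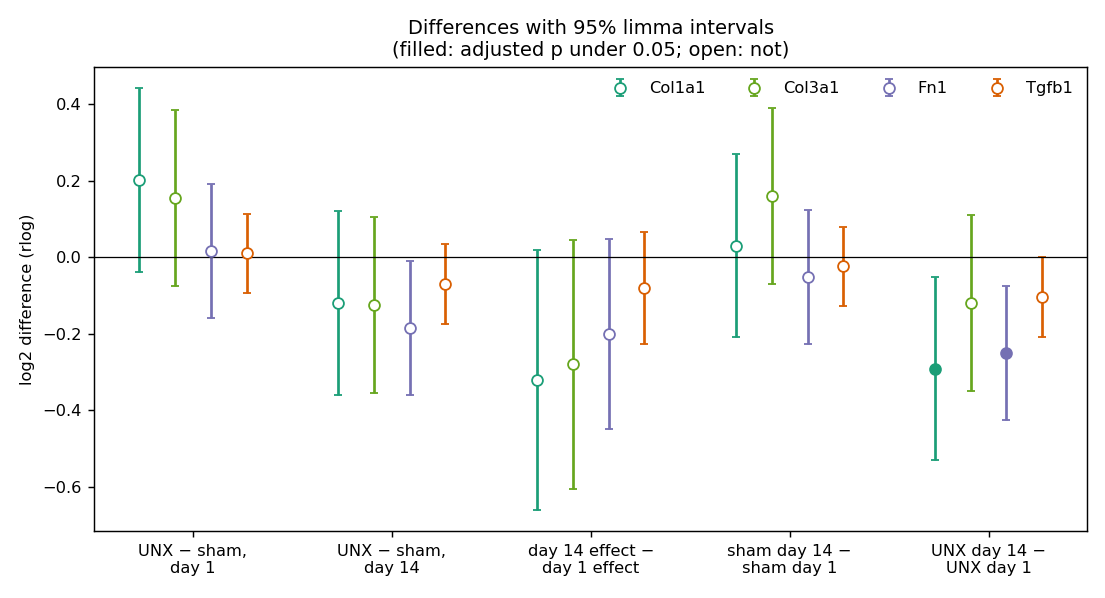
log2 difference of rlog values (y axis) with 95% limma intervals for Col1a1, Col3a1, Fn1 and Tgfb1 in the 5 comparisons on the x axis. Filled points passed at adjusted p under 0.05, which holds for Col1a1 (−0.29) and Fn1 (−0.25) between UNX day 14 and UNX day 1 and for no other point.

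Col1a1 and Col3a1 were high and low in the same libraries. Because age and its possible batch would set a pooled value, pairs were correlated within each age over its 8 libraries, UNX and sham together, which gave 12 relations among the 4 expressed genes. For Col1a1 with Col3a1 Pearson's r was 0.962 on day 1 and 0.977 on day 14 (exact permutation p = 0.000124 and 0.000174, each 0.00104 after Benjamini-Hochberg adjustment over 12 relations). Spearman's rho was 0.976 and 0.929 (exact permutation p = 0.000397 and 0.00223, adjusted 0.00476 and 0.0134). Without the 2 libraries farthest from the median of Col1a1, r was 0.889 and 0.925. Within the groups, after each group's mean was subtracted, r was 0.957 and 0.975. Without sham day 1 library 3 and sham day 14 library 4 it was 0.924 and 0.968.

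Fn1 correlated with Col3a1 and, less firmly, with Col1a1 at day 14, and with neither past the threshold at day 1. At day 14 r was 0.879 with Col3a1 and 0.798 with Col1a1 (exact permutation p = 0.00402 and 0.0178, adjusted 0.0161 and 0.0426). Spearman's rho was 0.857 and 0.714 (exact permutation p = 0.0107 and 0.0576, adjusted 0.0429 and 0.138). Without UNX day 14 library 1 and sham day 14 library 4, the 2 libraries farthest from the median, r was 0.808 and 0.601. The calls rested on few libraries: the relation with Col3a1 was no longer past the threshold without UNX day 14 library 1 (r = 0.83) or sham day 14 library 3 (r = 0.795), and that with Col1a1 was lost without any single day 14 library other than UNX library 3, at r between 0.686 and 0.812. Its adjusted p was 0.0533 (exact permutation) without sham day 1 library 2, which enters only through the adjustment. With group means subtracted r was 0.872 for Col3a1 and 0.784 for Col1a1 (permutation, adjusted p = 0.0138 and 0.0537). Those p-values are approximate, because the centred values were permuted across both groups. With median centring r was 0.874 and 0.792 (exact permutation, adjusted p = 0.0183 and 0.0557). The call for Col1a1 was lost in both. Without sham day 1 library 3 and sham day 14 library 4, r was 0.876 and 0.775 (exact permutation, adjusted p = 0.0300 and 0.0610). At day 1 r was 0.060 with Col3a1 and −0.025 with Col1a1 (exact permutation p = 0.882 and 0.951, each adjusted to 0.951), with rho of −0.024 and 0.071 (exact permutation p = 0.977 and 0.882, adjusted 0.977 and 0.962). Without the 2 libraries farthest from the median of the collagen, r at day 1 was 0.054 and 0.344. The difference between the ages in these correlations was not tested, and Fn1 spanned a far narrower range at day 1.

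Tgfb1 had no steady relation to the matrix genes. At day 1 it ran against Fn1, with r = −0.863 (exact permutation p = 0.00895, adjusted 0.0269) and rho = −0.762 (exact permutation p = 0.0368, adjusted 0.110). That relation was lost without sham day 1 library 2, the highest library for Tgfb1 and the lowest day 1 library for Fn1 (r = −0.616, exact permutation, adjusted p = 0.213). It was also lost with median centring (r = −0.784, exact permutation, adjusted p = 0.0557). Without it and UNX day 1 library 2 together, the 2 libraries farthest from the median of Fn1, r was −0.696. With Col1a1 and Col3a1 at day 1, r was 0.315 and 0.199 (exact permutation p = 0.458 and 0.637, adjusted 0.611 and 0.765), with rho of 0.167 and 0.238 (exact permutation p = 0.703 and 0.582, adjusted 0.844 and 0.776). Without the 2 libraries farthest from the median of the collagen, r was 0.093 and 0.020. At day 14 r was 0.717 with Col1a1, 0.713 with Col3a1 and 0.683 with Fn1 (exact permutation p = 0.0381, 0.0460 and 0.0591, adjusted 0.0762, 0.0788 and 0.0887), and none passed. Spearman's rho was 0.643, 0.571 and 0.50 (exact permutation p = 0.0962, 0.151 and 0.216, adjusted 0.192, 0.259 and 0.324). Without sham day 14 library 4 the r with Col1a1 and Col3a1 was 0.98 and 0.971 (exact permutation, adjusted p = 0.00119 and 0.00714). Without UNX day 14 library 1 as well, which leaves out the 2 farthest from the median of the collagen, it was 0.960 and 0.952. Without UNX day 14 library 1 and sham day 14 library 3 the value with Fn1 was −0.173, so that relation rests on those 2 libraries.

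**Figure D3:**
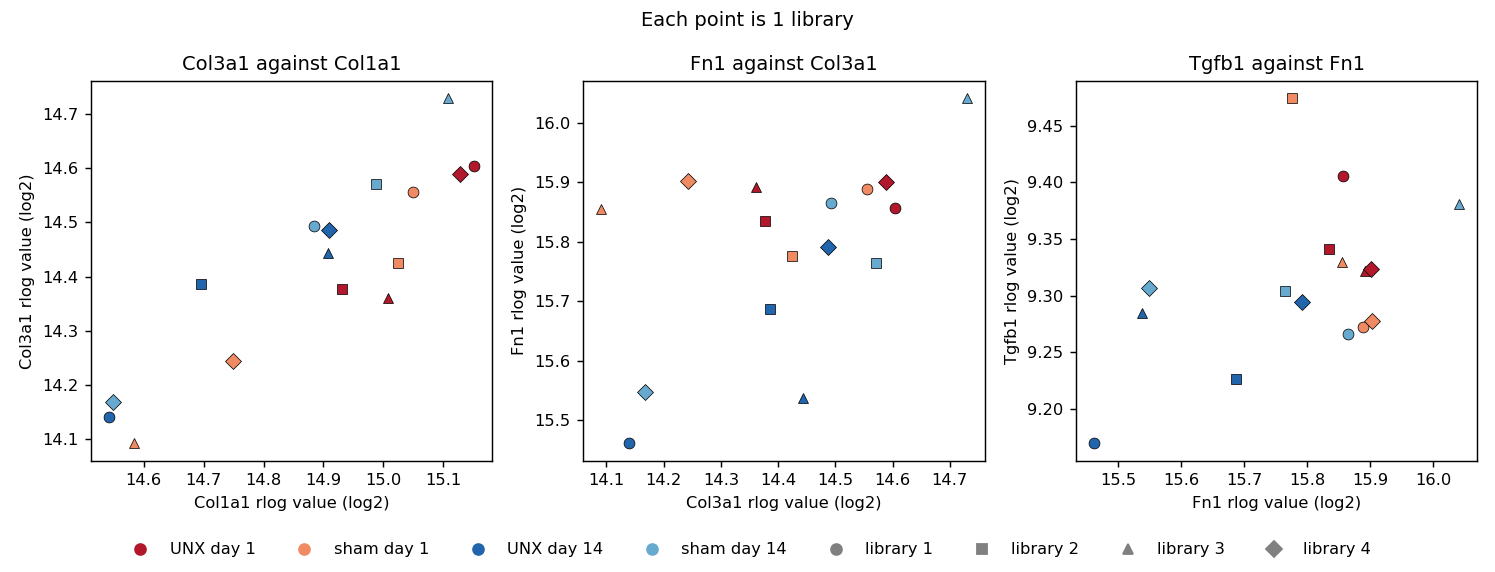
Col3a1 against Col1a1, Fn1 against Col3a1 and Tgfb1 against Fn1, as rlog values on both axes (log2 scale), with 1 point per library, colour for the group and shape for the library number. The collagen pair lies along a line at both ages (r = 0.962 and 0.977), whereas the day 1 points in the second panel vary along Col3a1 with little change in Fn1.

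Over all 14844 other tested genes, Col3a1 was the one most like Col1a1 and Col1a1 the one most like Col3a1. Likeness was Pearson's r over the 16 libraries after the mean of each age was subtracted, given as a description, and it was 0.970 for this pair. It was 0.952, again the highest in both directions, over the 14 libraries left without sham day 1 library 3 and sham day 14 library 4. The nearest gene to Col1a1 outside the set was ENSRNOG00000037239 (r = 0.919), which carries no name in the files used here. By the same measure Fn1 ranked 369 among the genes like Col3a1 and 682 among those like Col1a1, with r of 0.644 and 0.562. The gene most like Fn1 was ENSRNOG00000016374 (r = 0.969), also unnamed. Tgfb1 ranked 1020 among genes like Col1a1 (r = 0.512), 1444 among those like Col3a1 (r = 0.456) and 2990 among those like Fn1 (r = 0.315). Over the 14 libraries its rank for Col1a1 was 172 (r = 0.705).

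Because both collagens moved together, their difference within a library was far steadier than either level, and it separated the ages. Col3a1 minus Col1a1 was −0.55, −0.55, −0.65 and −0.54 in UNX day 1 libraries 1 to 4 and −0.49, −0.60, −0.49 and −0.51 in sham day 1 libraries 1 to 4. It was −0.40, −0.31, −0.46 and −0.42 in UNX day 14 libraries 1 to 4 and −0.39, −0.42, −0.38 and −0.38 in sham day 14 libraries 1 to 4. All 8 day 14 values were above all 8 day 1 values. A shift of all values in a library cancels in this difference, which carries no correction for gene length, so only its change between groups is read. Among all other tested genes set against Col1a1 in the same way, 4.42% separated all day 14 from all day 1 libraries, either upwards or downwards. The spread of Col1a1 itself enters each of those differences, and Col3a1 was the gene most like it. The share therefore does not say how rare a shift with age is.

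The group means of this difference were −0.52 ± 0.051 in sham day 1 and −0.39 ± 0.017 in sham day 14 (SD, n = 4 each), so that the ratio was higher at day 14 by 0.13 on the log2 scale or 1.09-fold. In UNX kidneys the means were −0.57 ± 0.050 and −0.40 ± 0.065 (SD, n = 4 each), apart by 0.17 or 1.13-fold. Each age comparison gave an exact permutation p of 0.0286, the smallest that 70 splits allow. After Benjamini-Hochberg adjustment over 4 tests it was 0.0571, so neither passed. With both at the smallest p, passing also needed an equally small p between UNX and sham, so the adjusted value decides nothing. Between UNX and sham the ratio differed by −0.05 on day 1 and −0.01 on day 14 (exact permutation p = 0.286 and 0.83, adjusted 0.381 and 0.83). Without sham day 1 library 3 and sham day 14 library 4 the sham age difference was 0.14 and its groups still did not overlap. Its exact permutation p was 0.1, the smallest that 20 splits allow, and 0.2 after adjustment, so it could not pass. The adjusted p of the UNX age difference was then 0.114 (exact permutation). Of all tested genes set against Col1a1, 8.69% did not overlap between the sham ages and 43.8% between the UNX ages, so for the UNX kidneys alone the separation is common among genes. The spread of Col1a1 enters both shares. Its SD was 0.22 in sham day 1 and 0.24 in sham day 14, against 0.10 in UNX day 1 and 0.18 in UNX day 14.

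**Figure D4:**
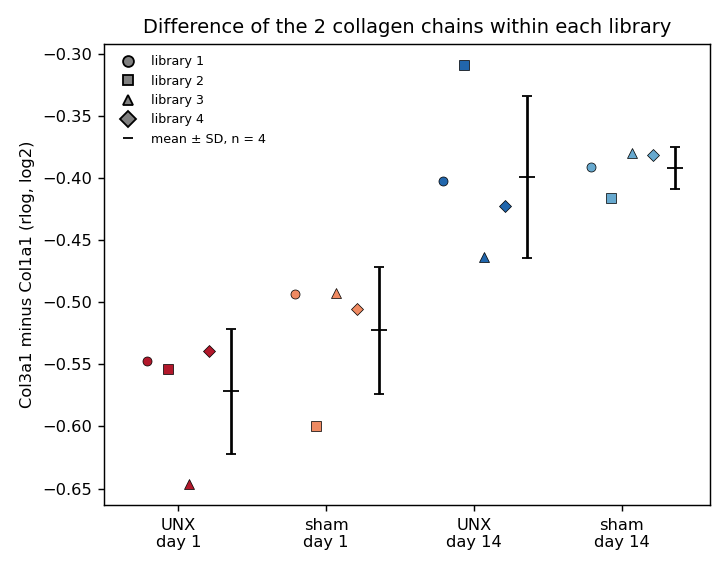
Col3a1 minus Col1a1 (difference of rlog values, log2 scale) in each library, by group, with bars for mean ± SD (n = 4). The day 1 libraries lie between −0.65 and −0.49 and the day 14 libraries between −0.46 and −0.31, with UNX and sham overlapping at each age.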

How the data were processed

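RNA sequencing of total kidney RNA gave 16 libraries. The deposited values are log2-scale rlog levels made by the authors, as the name of the deposited table and its values show. The submitters' processing notes list DESeq2, featureCounts, Subread 1.5.1, STAR 2.4.0 and BWA 0.7.14, without roles. Not given in the sources used here: build, annotation, strand setting and whether rlog was blind to the groups. Reads shared by overlapping genes cannot be set apart. Columns headed CO were taken for sham libraries, matched by day and number. No pair of libraries was identical.

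Genes with a mean rlog of at least 3 (14845 of 26689; 22715 varied) were tested with limma 3.58.1 in R 4.3.3: 1 mean per group over 16 libraries, 12 residual and 6.88 prior degrees of freedom, a mean-variance trend and two-sided p-values. Adjustment was by Benjamini-Hochberg over all tested genes, with calls under 0.05. The fit was tested on simulated data. Permutation tests were two-sided and exact, except that p-values after subtraction of group means and those for the difference of the UNX effects are approximate. They were run in Python 3.11.15 with pandas 2.3.3, scipy 1.17.1 and numpy 2.4.6. Figures were drawn with matplotlib 3.10.9. Alternatives changed the filter, scaling, variance model, weights, libraries, replicate block, threshold and test.

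All 5 members are named, and for likeness at most 2 identifiers, picked after their values were seen. Members and lists were chosen with earlier results of these data known. The reference table matched 0 of the 26689 identifiers, so pathway and cell type lists were not analysed here. The planned Col1a1 to Col1a2 ratio, and pairs with Col1a2, were left out because that row is near silent.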

Additional observations from a re-analysis of the deposited data

Results flagged for a closer look

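Samples far from the others were screened in 24 groups of 4 libraries, the 5 genes and the collagen difference in each group, with Dixon's test. It picked 4 groups, and chance picks about 1 in 20. The Col1a2 row had the value −0.423686 in UNX day 1 library 1 and −0.465764 to −0.465176 in the other libraries of that group. Likewise it had the value −0.429962 in UNX day 14 library 1 and −0.465602 to −0.464849 in the rest of its group. Both belong to the near-silent row, whose values span only 0.055 over all 16 libraries. Col3a1 minus Col1a1 was −0.646707 in UNX day 1 library 3, against −0.55353 to −0.539193 in the other 3. It was −0.599322 in sham day 1 library 2, against −0.50566 to −0.492431 in the other 3. Both low values are at day 1 and lie away from the day 14 values.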

How the results depend on the processing

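For UNX against sham and for the difference of the UNX effects, none of the 4 genes passed in any of 28 alternatives at either age. Among these, the permutation test called no tested gene at all. Its smallest adjusted p for any gene was 0.634 on day 1, 0.410 on day 14 and 0.216 for the difference. Where 1 library was left out, directions near 0 changed: on day 1 Fn1 ran from −0.011 to 0.031 and Tgfb1 from −0.012 to 0.055, and between the sham ages Col1a1 ran from −0.059 to 0.14, Fn1 from −0.13 to 0.035 and Tgfb1 from −0.046 to 0.021. Fn1 between the sham ages was also 0.034 without sham day 1 library 3 and sham day 14 library 4. Col3a1 between the sham ages ran from 0.082 to 0.27, with 0 or 1 of the 4 genes called.

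Between the UNX ages the count of 2 genes ran from 0 to 2 when 1 library was left out, with Col1a1 from −0.34 to −0.22, Fn1 from −0.31 to −0.20 and Col3a1, never called, from −0.16 to −0.04. The count was 1, with Col1a1 lost at an unchanged −0.29, without the filter, without the variance trend, with the robust variance model and with the library number as a replicate block (limma adjusted p = 0.0920, 0.0560, 0.0821 and 0.0676). It was 0 without UNX day 14 libraries 1 and 3, the lowest of their group for Fn1 (Col1a1 −0.25, Fn1 −0.13). It was also 0 by exact permutation test (Col1a1 −0.29, Fn1 −0.25), in which no gene could fall under an adjusted p of 0.0625. Tgfb1, at −0.10, passed only at an adjusted p under 0.10. Where not given by construction, the cause was not tested. Pairing by library number was not seen, in a check too small to exclude it. Of 8 same-number pairs, 1 correlated over 0.1 (range −0.228 to 0.119), and 5 of 16 libraries correlated best with their own number. The block changed no other call among the members. With the block, 0 genes in all were called for UNX on day 1, 8 on day 14.

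The number of correlated pairs at day 1 was 1 with median centring, which lost Fn1 with Tgfb1, and 1 to 2 without single libraries, and at day 14 it was 1 to 4. Weak day 1 pairs changed sign: Col1a1 with Fn1 ran from −0.173 to 0.168, Col3a1 with Fn1 from −0.097 to 0.228 and −0.030 with group means subtracted. The UNX difference of the collagen ratio at day 14 ran from −0.037 to 0.014. Over all genes, the counts called for UNX ran from 0 to 9 at day 1 (main value 1), 0 to 90 at day 14 (8) and 0 to 5 for their difference (0). The age counts stayed within 1.5 times. Median centring moved the median of all genes by −0.00802 to 0.00608. Fits without sham day 1 library 3 and sham day 14 library 4 were planned for the tests and chosen after seeing the data for the correlations and the ratio. Absolute depth is unknown, so counting error has no interval here.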
